A study of Homo sapiens with 4 samples.

Results

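Matrix metalloproteinases and plasminogen activators are the enzymes with which cells cut the proteins around them. The 10 genes described here were chosen by symbol and comprise 4 matrix metalloproteinases (MMP1, MMP2, MMP3 and MMP14), 3 of their inhibitors (TIMP1, TIMP2 and TIMP3), the plasminogen activators PLAU and PLAT, and the receptor PLAUR. All 10 were found among the 60725 genes of the count table, and 9 had enough reads to be tested. RNA was sequenced from hTERT-RPE1 cells, a telomerase-immortalized human retinal pigment epithelial line, that carried the SunTag system in all samples. Control (scramble) cells received 10 nM of the siRNA Silencer Select Negative Control No. 2, and TOP2B knockdown cells 10 nM of a Dharmacon pool of siRNAs against TOP2B. Both were transfected again after 48 h and collected 72 h later, on day 5, with 2 biological replicates per condition. Each condition is thus 1 siRNA reagent, and the loss of TOP2B cannot be told apart from other effects of these siRNAs.

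The metalloproteinases are zinc-dependent enzymes made as inactive precursors, and each TIMP blocks an active enzyme by occupying its catalytic site. MMP14 is anchored in the plasma membrane, where a complex with TIMP2 holds the precursor of MMP2 for activation. PLAU (urokinase) and PLAT (tissue-type activator) convert plasminogen into plasmin, and PLAUR concentrates urokinase on the cell surface. In the eye, the retinal pigment epithelium uses these enzymes to turn over Bruch's membrane, the matrix sheet on which it rests and in which TIMP3 is deposited. MMP1, MMP3 and PLAUR are textbook targets of AP-1, the dimer of FOS and JUN family proteins, and several of these factors belong to the secretory programme of senescent cells. The RNA-seq experiment asked whether altered transcription could account for the altered contacts between the genome and the nuclear lamina after TOP2B depletion.

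Sequencing depth was similar in all libraries, with 20310259 to 23887013 counts on genes. TOP2B itself had 154.9 and 143.5 CPM (the usual counts scaled to library size, here adjusted by the TMM method) in control and 15.3 and 13.3 CPM in knockdown cells, which left 9.58% of the control level (adjusted p = 5.1e-06, edgeR's quasi-likelihood test). Of 13 markers of retinal pigment epithelium, RPE65, TYR, DCT and TTR had no read in any library and RLBP1 at most 1 read, while MITF (38.2 to 44.8 CPM), OTX2 (11.2 to 13.4 CPM), KRT8 and KRT18 were expressed. The pigment cell genes TYRP1 and PMEL had 2 to 7 and 7 to 31 reads and the channel gene BEST1 14 to 20 reads per library. Of the genes that define the tissue, RPE65 of the visual cycle and TYR and DCT of pigment synthesis were not detected at this depth. Other pigment genes were near the limit. All 6 macrophage markers together had 2.88 to 3.73 CPM in control and 3.32 to 3.54 CPM in knockdown libraries, mostly from CSF1R, and 5 endothelial markers 1.62 to 2.13 and 1.19 to 1.42 CPM. The 6 fibroblast markers, mostly PDGFRB, summed to 143.2 to 182.6 CPM in control and 123.7 to 124.2 CPM in knockdown libraries, with LUM at 0 and DCN at no more than 2 reads. PDGFRB had a log2(fold change) of -0.44, while the other 2 tested fibroblast markers, PDGFRA and COL1A1, had 0.43 and 0.35, and none of the 3 was called. Their part in the results was not tested. Replicate 1 stood above replicate 2 in both conditions for 7 of the 9 tested genes, and the 10 genes held 0.418% and 0.308% of the counts in control replicates 1 and 2 against 0.437% and 0.372% in the knockdown replicates.

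Promoter sequences of part of the list were searched for short words. RefSeq promoter entries, running from 250 bases before to 50 bases after the annotated start on GRCh38.p14, were found for 5 of the 10 genes (MMP14, TIMP1, TIMP3, PLAU and PLAUR), while MMP1, MMP2, MMP3, TIMP2 and PLAT were not listed. Each was searched for the AP-1 word TGACTCA on both strands, the GC box GGGCGG on both strands and the word TATAAA on the gene's strand, and no match overlapped another. PLAUR held the AP-1 word once, as TGAGTCA at position -186 relative to its start, a word found in 4.95% of 35116 promoters. The downstream of 2 PLAU entries held 3 GC boxes and the upstream entry none, while MMP14 held 1, TIMP1 held 2 and TIMP3 held 5, where 45.0% of all promoters have at least 1. TATAAA, present in 7.33% of promoters, was in none of the 5. The promoters of the receptor, of its ligand and of the most abundant member are given here 5′ to 3′ on the gene's strand, with the words found in capitals, because PLAU and PLAUR act as a pair and hold different words. A match is a description of these letters and not a binding site. They lie at chr19:43670120-43670419 on the minus strand (PLAUR), chr10:73910882-73911181 on the plus strand (PLAU) and chr14:22836335-22836634 on the plus strand (MMP14).

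PLAUR promoter: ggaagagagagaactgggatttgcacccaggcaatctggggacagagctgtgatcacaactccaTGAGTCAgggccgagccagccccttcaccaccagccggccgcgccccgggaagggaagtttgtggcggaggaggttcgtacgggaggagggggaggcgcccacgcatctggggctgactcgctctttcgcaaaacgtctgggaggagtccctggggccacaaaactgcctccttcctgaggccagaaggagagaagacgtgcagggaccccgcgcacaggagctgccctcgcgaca

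PLAU promoter: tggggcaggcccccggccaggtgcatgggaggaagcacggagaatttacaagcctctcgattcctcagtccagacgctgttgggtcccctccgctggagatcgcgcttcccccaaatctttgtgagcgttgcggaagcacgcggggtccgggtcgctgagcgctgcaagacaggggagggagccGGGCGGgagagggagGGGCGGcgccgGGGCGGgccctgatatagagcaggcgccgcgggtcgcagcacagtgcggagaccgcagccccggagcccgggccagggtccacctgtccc

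MMP14 promoter: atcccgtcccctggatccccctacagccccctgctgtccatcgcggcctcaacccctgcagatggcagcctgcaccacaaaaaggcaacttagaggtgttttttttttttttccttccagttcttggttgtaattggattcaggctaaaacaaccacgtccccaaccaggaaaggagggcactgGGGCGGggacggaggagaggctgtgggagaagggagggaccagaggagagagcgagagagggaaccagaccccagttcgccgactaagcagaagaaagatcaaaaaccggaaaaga

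MMP1, the interstitial collagenase that cleaves fibrillar collagen, rose from near absence to a low level after TOP2B depletion. The gene (ENSG00000196611) occupies positions 102789401 to 102798160 of chromosome 11 (GRCh38, minus strand). It had 4 and 3 reads in the control libraries and 37 and 21 reads in the TOP2B knockdown libraries, or 0.167 and 0.132 CPM against 1.75 and 1.04 CPM. Both knockdown libraries were above both control libraries. Pooled over libraries, 7 reads stood against 58, a ratio of 9.36 whose exact 95% interval of 4.27 to 24.3 covers counting error only. The fit over 15356 genes gave a log2(fold change) of 3.18 (standard error 0.52, adjusted p = 0.00531, edgeR's quasi-likelihood test), and this value lay between 2.76 and 3.48 without any one library. The gene passed the count filter through the knockdown libraries alone, so that it had to differ in order to be tested. DESeq2 gave a log2(fold change) of 3.20 and no adjusted p.

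MMP3, stromelysin 1, which degrades several matrix proteins and activates other metalloproteinases, stayed at the edge of detection. The gene is the nearest member of the list to MMP1, on the same strand of chromosome 11 from 102835801 to 102843609. It had 1 and 2 reads in control and 3 and 7 reads in knockdown libraries and was too low to be tested. The pooled ratio was 3.77, with a counting interval of 0.97 to 21.3 that includes no change. Both genes belong to a row of 9 metalloproteinase genes between positions 102520508 and 102955732. Of the other 7, MMP7 had 0 and 0 reads in control and 2 and 1 in knockdown libraries, MMP10 had 1 read in all, and MMP8, MMP12, MMP13, MMP20 and MMP27 had none in any library. A count of 0 allows up to 3 reads, or 0.125 to 0.149 CPM in these libraries. WTAPP1, a pseudogene that shares 8.14% of the exon bases of MMP1 and 1.73% of those of MMP3 on the opposite strand, had 1 read in all. Of 6 tested genes within 500 kb of MMP1, TMEM123 was called higher and the other 5 were not called. Among all genes tested 6.66% were called higher, so 1 call is not a result about this region. In the same window, 2 of 24 tested genes were called higher around MMP14 and 0 of 4 around MMP2.

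MMP2 and MMP14, the gelatinase A gene and the gene for its membrane-bound activator, were by contrast among the abundant transcripts. MMP2 (chromosome 16 from 55389700 to 55506691, plus strand) had 1056 and 761 CPM in control and 1366 and 1232 CPM in knockdown libraries. The groups did not overlap, with control replicate 1 the nearer of the controls to the knockdown libraries. The means were 908 ± 209 and 1299 ± 95 CPM (SD, n = 2), a fold of 1.43 with a 95% interval of 1.07 to 1.91. At a log2(fold change) of 0.52 (standard error 0.19) the adjusted p was 0.111 by edgeR's quasi-likelihood test, and MMP2 was not called. With the replicate number as a block, a pairing that no label gives, the adjusted p was 7.57e-06 (same test). That fit called 3440 of 15356 genes higher. The call also depended on the method, since the adjusted p was 0.0239 with the Wald test of DESeq2 and 0.00998 in edgeR without the filter on low counts. Over these and the other changes of scaling and filter it ranged from 0.00998 to 0.122, and without one library from 0.059 to 0.644.

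MMP14 (chromosome 14 from 22836560 to 22849041, plus strand) had 1612 and 1119 CPM in control and 1693 and 1363 CPM in knockdown libraries, so that the groups overlapped. Its log2(fold change) of 0.16 had a standard error of 0.21 (adjusted p = 0.67, edgeR's quasi-likelihood test). A fold between 0.813 and 1.54 lay within the 95% interval, and the sign turned to -0.08 without control replicate 2. Replicate 1 was the higher in both conditions, so leaving out 1 library also unbalanced the replicate numbers. With the replicate number as a block the log2(fold change) was 0.18 (adjusted p = 0.00974, edgeR's quasi-likelihood test). That fit called 3440 genes higher, and no label ties equal replicate numbers together.

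The 3 inhibitor genes were not called by DESeq2 or by edgeR with condition alone in the fit. TIMP1 (chromosome X from 47582408 to 47586789), which inhibits most soluble metalloproteinases, had 170.4 and 146.2 CPM in control and 133.9 and 122.2 CPM in knockdown libraries. Both knockdown values were below both control values. A log2(fold change) of -0.31 was fitted (standard error 0.13, adjusted p = 0.169, edgeR's quasi-likelihood test), and it stayed between -0.41 and -0.19 without any one library. With the replicate block the adjusted p was 0.000128 (same test), in a fit that called 3346 of 15356 genes lower. TIMP1 lies inside an intron of SYN1, a gene on the other strand with at most 4 reads per library.

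TIMP2 (chromosome 17 from 78852977 to 78925387), the inhibitor that also bridges MMP14 and the MMP2 precursor, had 929 and 731 CPM in control and 847 and 707 CPM in knockdown libraries. TIMP3 (chromosome 22 from 32801705 to 32863041), the inhibitor bound to matrix, had 40.0 and 29.5 CPM against 34.0 and 28.8 CPM. For either gene the groups overlapped, and the log2(fold changes) of -0.09 and -0.15 had standard errors of 0.17 and 0.16 (adjusted p = 0.78 and 0.62, edgeR's quasi-likelihood test). The 95% intervals ran from 0.716 to 1.23-fold for TIMP2 and from 0.703 to 1.16-fold for TIMP3. Both signs turned without control replicate 1, to 0.09 for each gene, and that of TIMP2 also without knockdown replicate 2 (0.02). TIMP2 shares 9.52% of its exon bases with other genes, of which CEP295NL had 12 and 10 reads in control and 1 and 3 reads in knockdown libraries.

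TIMP2 and TIMP3 were also the 2 of the 10 genes with the word GCAACC in the 3′ untranslated region of their representative GENCODE transcript, a word chosen with earlier results of these libraries known. It occurred in 21.2% of 19195 such regions of at least 50 bases, so 2 of 10 is not a result about the list. The regions of TIMP3 (3664 bases) and TIMP2 (2690 bases) were the longest of the 10, followed by MMP14 (1719 bases). The sites, with the word in capitals, are shown as the matches among the 10 genes, neither of which was called.

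TIMP2 site: ttctattcagcgGCAACCccaaagcacctg

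TIMP3 site: aagcctgagtttGCAACCagttgtagggtt

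Because reads of different genes in one library share its scaling and its depth, MMP2 and MMP14 were also expressed per read of each inhibitor, a comparison added after the values were seen. MMP2 reads per TIMP2 read were 1.14 and 1.04 in control and 1.61 and 1.74 in knockdown libraries, a mean fold of 1.54. Per TIMP1 read the values were 6.20 and 5.20 against 10.2 and 10.1, a fold of 1.79, and per TIMP3 read 26.4 and 25.8 against 40.2 and 42.8, a fold of 1.59. In all 3 cases the knockdown libraries were above the control libraries, and the log2 difference of the means (0.62 to 0.84) exceeded the largest log2 gap between replicates (0.128, 0.253 and 0.0883 for TIMP2, TIMP1 and TIMP3). MMP14 moved less, with 1.74 and 1.53 reads per TIMP2 read in control and 2.00 and 1.93 in knockdown libraries, a fold of 1.204, and folds of 1.40 per TIMP1 read and 1.24 per TIMP3 read. These groups did not overlap either. Ratios with the same numerator share its reads, and the CPM values of MMP2 did not overlap to begin with, so the 6 ratios are not separate observations. MMP2 reads per MMP14 read were 0.655 and 0.680 against 0.807 and 0.904. With 2 libraries against 2, a two-sided exact permutation test cannot give a p below 0.333, which is what each of these 7 ratios reached, so they remain descriptions of these libraries. A ratio shows unequal change of a pair of genes and not which of them changed.

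**Figure D1:**
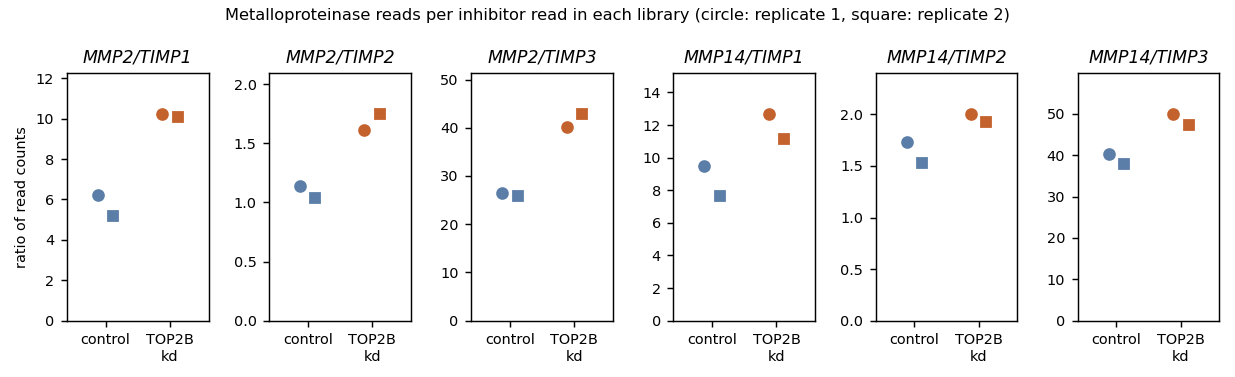
Ratio of MMP2 or MMP14 reads to TIMP1, TIMP2 or TIMP3 reads (vertical axis, read count divided by read count, each from 0) in the 2 control and 2 TOP2B knockdown libraries. In all 6 panels both knockdown points lie above both control points, from 1.204-fold (MMP14/TIMP2) to 1.79-fold (MMP2/TIMP1) in the mean, and panels that share a gene share its reads.

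Of the plasminogen activators and their receptor, none was called by DESeq2 or by the edgeR fit to all libraries with its count filter and condition alone. PLAU (chromosome 10 from 73909177 to 73917496, plus strand) had 52.2 and 47.3 CPM in control and 33.5 and 40.7 CPM in knockdown libraries, with no overlap. The means of 49.8 ± 3.50 and 37.1 ± 5.10 CPM (SD, n = 2) gave a fold of 0.744 with a 95% interval of 0.604 to 0.918, and a log2(fold change) of -0.43 (standard error 0.14, adjusted p = 0.0745, edgeR's quasi-likelihood test). PLAU passed the threshold without TOP2B knockdown replicate 2 (log2(fold change) -0.59, adjusted p = 0.0391) and without the filter on low counts (adjusted p = 0.0417), and missed it with DESeq2 (0.0754). The log2(fold change) was -0.29 (adjusted p = 0.465, edgeR's quasi-likelihood test) without knockdown replicate 1, -0.35 (adjusted p = 0.262) without control replicate 1 and -0.50 (adjusted p = 0.0849) without control replicate 2. With the replicate block the adjusted p was 0.000829 (edgeR's quasi-likelihood test), in the fit that called 3346 of 15356 genes lower. The gene shares 31% of its exon bases with C10orf55 on the opposite strand, which had 12 and 25 reads in control and 3 and 21 reads in knockdown libraries against 709 to 1251 reads for PLAU. The headers of the count table call the libraries stranded and the methods name an unstranded setting for the signal tracks of STAR, but neither states whether the counting used strand, so reads from these shared bases cannot be assigned.

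PLAT (chromosome 8 from 42174718 to 42207709, minus strand) had 212 and 177 CPM in control and 142.8 and 165.3 CPM in knockdown libraries. The knockdown libraries lay below both control libraries, and the log2(fold change) of -0.34 had a standard error of 0.14 (adjusted p = 0.162, edgeR's quasi-likelihood test). With the replicate block the adjusted p of PLAT was 0.0029 (same test), in that same fit with its many calls. PLAUR (chromosome 19 from 43646095 to 43670547, minus strand) had 101.8 and 85.0 CPM against 105.1 and 84.3 CPM, almost the same pair of values in each condition. Its fold of 1.01 had a 95% interval of 0.809 to 1.27 (adjusted p = 0.951, edgeR's quasi-likelihood test), which leaves changes within about that range undetected, and its sign turned without control replicate 2 (-0.10) or knockdown replicate 1 (-0.14). PLAU reads per PLAUR read were 0.513 and 0.556 in control and 0.318 and 0.482 in knockdown libraries, without overlap, but the knockdown replicates were further apart (0.60 on the log2 scale) than the groups (-0.45).

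**Figure D2:**
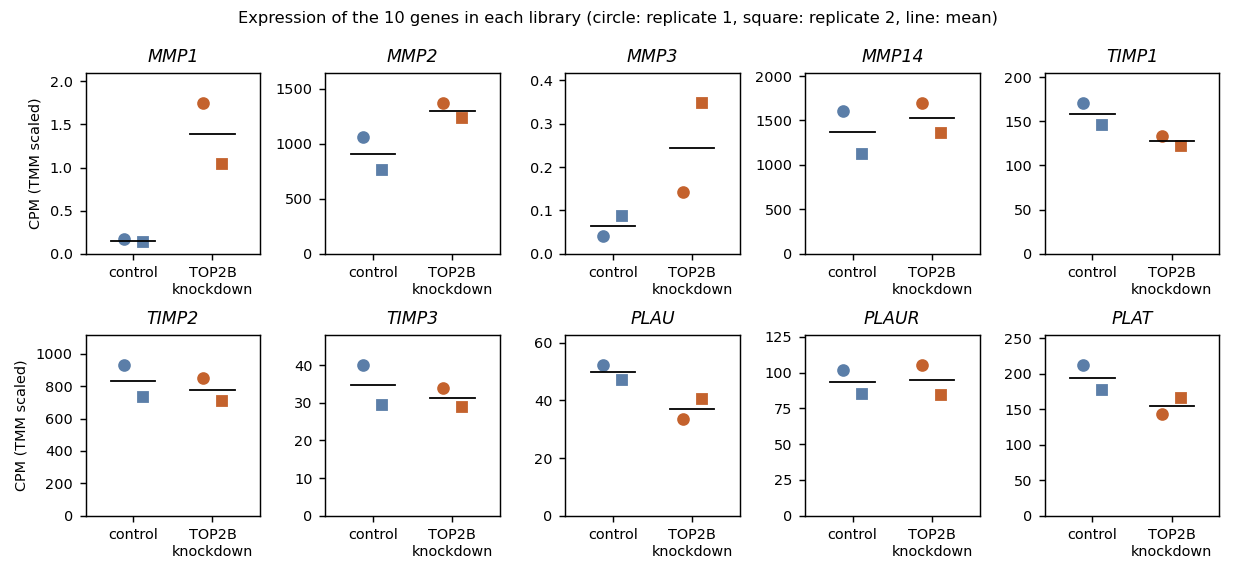
CPM scaled by TMM (vertical axis, each panel from 0) of the 10 genes in the control and TOP2B knockdown libraries, with replicate 1 as a circle, replicate 2 as a square and the mean as a line. MMP1, MMP2 and MMP3 have both knockdown points above both control points, TIMP1, PLAU and PLAT have both below, and the other 4 genes overlap.

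Counted together, 1 of the 9 tested genes was called higher and 0 lower at an adjusted p below 0.05. The called gene was MMP1, which had to differ in order to be tested, here and in the counts that follow. Among all 15356 genes tested, 6.66% were called higher and 4.18% lower, so that a count of this size is not a result about the list. At an unadjusted p below 0.05 edgeR gave 2 higher (MMP1 and MMP2) and 3 lower genes (TIMP1, PLAU and PLAT), where 14.5% of all genes were higher and 11.8% lower. DESeq2 called MMP2 higher and 0 lower, next to 6.91% and 4.86% of the genes it gave an adjusted p. Both knockdown libraries were above both control libraries for 2 of the 9 genes, as for 27.7% of all genes, and below for 3, as for 26.6% of all genes. The median log2(fold change) of the 9 genes was -0.09, against -0.0029 over all genes tested.

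**Figure D3:**
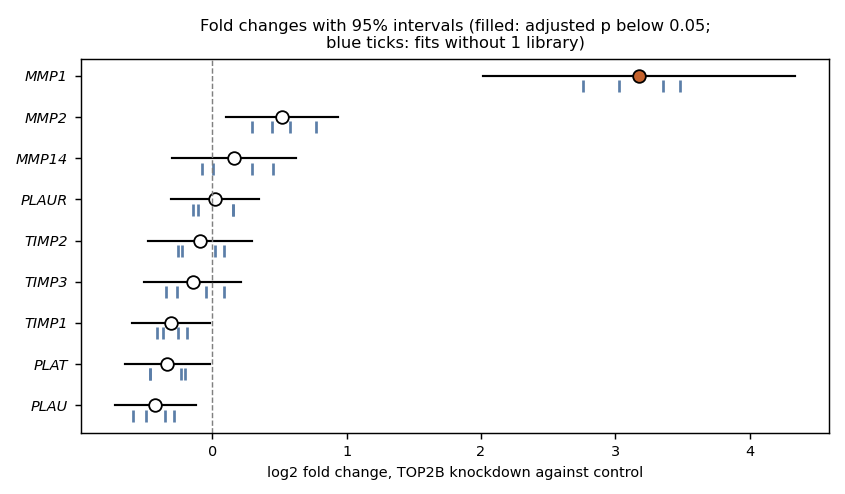
Log2 fold change of the 9 tested genes (horizontal axis, TOP2B knockdown against control) with 95% intervals as bars, and the values of the 4 fits without 1 library as blue ticks. MMP1 at 3.18 is the filled point past the threshold, and it passed the count filter through the knockdown libraries alone. The intervals of MMP2, TIMP1, PLAT and PLAU do not reach 0 although their adjusted p misses the threshold, and those of the other 4 genes include 0.

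The levels of the 10 genes spanned a wide range when scaled to length. In CPM per kilobase of annotated exon, control cells had 295 ± 75.4 for MMP14, 193 ± 44.4 for MMP2, 133.6 ± 22.6 for TIMP2 and 109.4 ± 11.8 for TIMP1 (SD, n = 2). A second tier held PLAT at 25.04 ± 3.17, PLAUR at 21.0 ± 2.67, PLAU at 16.9 ± 1.19 and TIMP3 at 7.56 ± 1.61. MMP1 followed at 0.0545 ± 0.0091 and MMP3 at 0.0349 ± 0.0175. Neighbours in this order were separated in the control libraries except TIMP2 with TIMP1 and PLAT with PLAUR, whose values overlapped. For MMP1 and MMP3 this rests on 4 and 3 reads against 1 and 2, too few to order them. In knockdown cells MMP14 (331 ± 50.5) and MMP2 (276 ± 20.2) stayed first and second, PLAUR (21.3 ± 3.30) and PLAT (19.8 ± 2.04) changed places with overlapping values, and MMP1 reached 0.509 ± 0.182. With the length of the representative transcript in place of all exons, PLAUR stood above PLAT in control too, at 68.3 ± 8.70 against 63.5 ± 8.04, and the other 8 kept their place. With that length MMP2 also overlapped TIMP2 in the control libraries, and MMP14 overlapped MMP2 in the knockdown libraries.

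**Figure D4:**
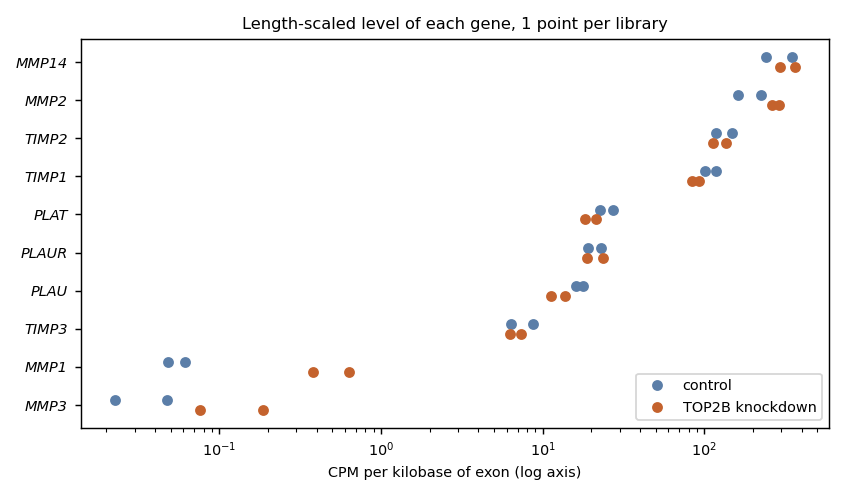
Level of each of the 10 genes in CPM per kilobase of exon (horizontal log axis), with 1 point per library. MMP14, MMP2, TIMP2 and TIMP1 lie between 84.5 and 366, the next 4 genes between 6.27 and 27.3, and MMP1 and MMP3 below 0.64 in every library.

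Genes that work with these enzymes were examined in 5 lists drawn up from general knowledge, 84 genes in all. Of these, 56 were tested, 6 were called higher, 4 lower and 46 not called, next to the 6.66% and 4.18% of all genes called higher and lower. The same shares stand beside the count of each list below, and no such count is a result about its list. Their median log2(fold change) was -0.15.

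Among the other metalloproteinases, 7 of 19 were tested, 0 were called higher and 2 lower. MMP15, a membrane-anchored relative of MMP14, had 29.1 and 24.6 CPM in control and 18.4 and 18.6 CPM in knockdown libraries and fell by 0.53 on the log2 scale (standard error 0.14, adjusted p = 0.0376, edgeR's quasi-likelihood test). MMP17, which is held to the membrane by a lipid anchor, had 4.05 and 3.73 CPM against 2.31 and 1.79 CPM and fell by 0.92 (standard error 0.25, adjusted p = 0.0413, same test). Without one library the adjusted p reached 0.219 for MMP15 (without control replicate 1, and also above 0.05 without either knockdown replicate) and 0.179 for MMP17 (without knockdown replicate 2, and 0.0969 without control replicate 1). MMP16, the gene of this list with the highest mean CPM, not scaled to length, had 44.1 and 31.8 CPM against 30.2 and 24.1 CPM (adjusted p = 0.109, same test). At an unadjusted p below 0.05 (14.5% of all genes higher and 11.8% lower), 3 genes of this list were lower and MMP11 was higher, with 10 and 5 reads in control against 21 and 13 reads in knockdown libraries (adjusted p = 0.12, same test). MMP11 would not have passed the count filter on its control libraries alone, so its test leaned on the group where it was high. DESeq2 called 0 of the list higher and MMP15 lower.

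Of the activators and inhibitors, 5 of 8 were tested and FURIN alone was called, by edgeR and by DESeq2. FURIN, the convertase that removes the inhibitory part of MMP14 and other precursors, had 145.0 and 119.7 CPM in control and 244.1 and 233.2 CPM in knockdown libraries. It rose by 0.85 on the log2 scale, a 1.803-fold change (standard error 0.14, adjusted p = 0.00505, edgeR's quasi-likelihood test), and passed without any one library. BSG, which induces metalloproteinases in neighbouring cells and had the highest mean CPM of the list, had 689 and 574 CPM against 583 and 515 CPM.

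In the plasminogen system, 12 of 17 partners were tested, with 2 called higher and 1 lower. MRC2, a receptor that takes up collagen fragments and associates with PLAUR, had 59.1 and 42.9 CPM in control and 117.4 and 100.9 CPM in knockdown libraries and rose by 1.10 (standard error 0.16, adjusted p = 0.00325, edgeR's quasi-likelihood test), also without any one library. SERPINE2, an inhibitor of thrombin and of plasminogen activators, had 139.5 and 96.2 CPM against 220.9 and 167.6 CPM and rose by 0.72 (standard error 0.19, adjusted p = 0.0402, same test). It missed the threshold without control replicate 2 (0.48, adjusted p = 0.182) or knockdown replicate 1 (0.51, adjusted p = 0.103), and when the filter asked for a mean count of 100 (0.73, adjusted p = 0.0676). S100A10, which with ANXA2 forms a plasminogen receptor, had 105.8 and 126.2 CPM against 58.3 and 80.4 CPM and fell by 0.74 (standard error 0.16, adjusted p = 0.0199, same test), and missed the threshold without knockdown replicate 1 (-0.52, adjusted p = 0.0952). ANXA2 itself was not called (log2(fold change) -0.15), and plasminogen (PLG) had no read in any library.

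Of 30 ADAM and ADAMTS proteases, relatives of the metalloproteinases that shed membrane proteins or cut proteoglycans, 22 were tested, 1 was called higher and 1 lower. ADAMTS15, a proteoglycanase, had 87.4 and 75.9 CPM in control and 31.2 and 34.6 CPM in knockdown libraries and fell by 1.31, to 0.403 of the control level (standard error 0.13, adjusted p = 0.000624, edgeR's quasi-likelihood test). This fall also passed without any one library. ADAM15 rose by 0.55 (standard error 0.13, adjusted p = 0.0297, same test), from 161.8 and 144.8 CPM to 239.9 and 208.5 CPM, and missed the threshold without control replicate 2 (0.47, adjusted p = 0.205) or knockdown replicate 1 (0.45, adjusted p = 0.209). ADAM9, the gene of this list with the highest mean CPM, not scaled to length, had 1096 and 856 CPM against 980.2 and 818 CPM.

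All 10 AP-1 and ETS factors were tested, and 2 were called higher and 0 lower, next to 6.66% and 4.18% of all genes. FOSB had 3.17 and 2.68 CPM in control and 4.86 and 5.80 CPM in knockdown libraries and rose by 0.86 (standard error 0.22, adjusted p = 0.0348, edgeR's quasi-likelihood test). It missed the threshold without control replicate 2 (0.75, adjusted p = 0.119), without knockdown replicate 2 (0.72, adjusted p = 0.159) and with DESeq2 (adjusted p = 0.0825). ETS2 rose by 0.47 (standard error 0.12, adjusted p = 0.0323, same test), from 47.2 and 43.6 CPM to 63.0 and 62.3 CPM, and missed the threshold in each of the 4 fits without one library (0.41 to 0.52, adjusted p between 0.0678 and 0.216). FOSL1, the gene with the highest mean CPM here, had 840 and 1121 CPM against 1124 and 1256 CPM (adjusted p = 0.367, same test). At an unadjusted p below 0.05 (14.5% of all genes higher and 11.8% lower), JUN was lower, with 216.7 and 211.1 CPM against 173.3 and 168.5 CPM (adjusted p = 0.123, same test). DESeq2 called ETS2 higher and 0 of the list lower.

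**Figure D5:**
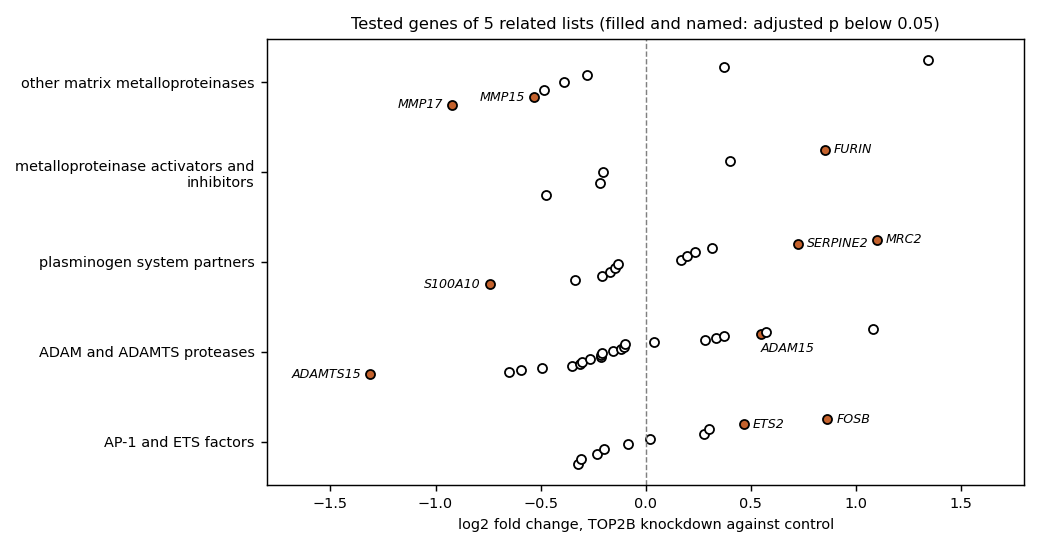
Log2 fold changes (horizontal axis, TOP2B knockdown against control) of the 56 tested genes in 5 related lists, 1 point per gene, filled and named where the adjusted p is below 0.05. The 6 called higher genes lie between 0.47 and 1.10 and the 4 called lower genes between -1.31 and -0.53.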

How the data were processed

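RNA-seq data from 2 control and 2 TOP2B knockdown libraries of RPE1 SunTag cells were used. Per the labels and the methods, libraries were made with the TruSeq RNA LT kit and read as 65-base single-end reads, although the count table's headers label them stranded and paired-end. The authors checked reads with FastQC 0.11.6, aligned them to GRCh38 with STAR 2.5.4a and counted reads per gene during mapping with Gencode 24. The deposited values are raw counts. The table repeats each of the 4 columns once, gene by gene the same, and the 4 repeats were left out.

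A gene was tested where 2 or more libraries had 10 or more counts, in 1 fit over all such genes with edgeR 4.0.16 in R 4.3.3 (glmQLFit and glmQLFTest on TMM-normalized libraries, with no covariate, two-sided, Benjamini-Hochberg adjustment), and called at an adjusted p below 0.05. Standard errors are the absolute log2(fold change) divided by the root of the F statistic, with 95% intervals from the t distribution of the same fit. Positions, lengths and symbols came from GENCODE 44, which held 93.1% of the gene identifiers and all listed symbols, and promoters from RefSeq. All 10 members were described. In each related list the called genes and the gene with the highest mean CPM were named, except 1 item that is not reported here, and MMP11, JUN, ANXA2 and TMEM123 were named after their values were seen, as were PLG, LUM, DCN and single marker genes. Members and lists were chosen with earlier results of these data known. Alternatives were the size factors of DESeq2 1.42.0 in edgeR, library size alone, the Wald test of DESeq2, other count filters, the replicate number as a block, each library left out, and another length. Scripts were tested on simulated data. Protein sequences were not used here. With 2 libraries per condition, p-values rest on the spread between these samples, moderated by that of the other genes in the fit.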

Additional observations from a re-analysis of the deposited data

How the results depend on the processing

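MMP1, which had to differ in order to be tested, had a log2(fold change) of 2.76 to 3.48 without any one library and an adjusted p up to 0.00645 over the scalings and filters that kept it, and a mean of at least 100 counts removed it. Members called higher numbered 2 without a filter on low counts (MMP1 and MMP2), where 1358 of 29440 genes were called higher. They numbered 0 at a mean of at least 100 counts, where 825 of 10893 genes were called higher. Members called lower numbered 1 without a filter (PLAU), where 985 of the 29440 genes were called lower. Counts this small are not a result about the members. Related genes called higher numbered 2 to 6 without one library and those called lower 3 to 6. Genes called without one library numbered 697 to 987 higher and 467 to 534 lower. In those fits the lone library was assumed to vary like the other pair, and log2(fold changes) that turned ranged from -0.077 to 0.45 for MMP14, -0.26 to 0.089 for TIMP2, -0.35 to 0.089 for TIMP3 and -0.14 to 0.16 for PLAUR. For each of these genes replicate 1 was above replicate 2 in both conditions, so such a fit also unbalanced the replicate numbers. The cause was not tested. The order of levels changed for 2 members with the representative transcript.

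Both conditions use replicate numbers 1 and 2, but nothing in the labels ties equal numbers together, and 2 pairs are too few to settle it from the data. Across genes, the differences between replicates 1 and 2 in control and in knockdown correlated at 0.479. With the replicate block, 3440 of 15356 tested genes were called higher and 3346 lower. Of the 9 tested members, 3 were higher (MMP1, MMP2 and MMP14, with adjusted p of 4.06e-05, 7.57e-06 and 0.00974, edgeR's quasi-likelihood test). Another 3 were lower (TIMP1, PLAU and PLAT, with 0.000128, 0.000829 and 0.0029, same test). Of the 56 tested related genes, 15 were higher and 23 lower. These counts stand beside a large share of all genes, in a fit whose pairing no label gives. They are not read as a result about the members or the lists. TIMP2, TIMP3 and PLAUR were not called with the block (0.0992, 0.126 and 0.792). Depth limits MMP1 and MMP3, which rest on 65 and 13 reads in all.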
